A study of Drosophila melanogaster with 6 samples.

Results

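Serpins are a family of proteins, most of which inhibit serine proteases. An inhibitory serpin offers a flexible reactive loop as bait, and the protease that cuts it is trapped and destroyed with the inhibitor. In Drosophila, secreted serpins are known as brakes on the extracellular protease cascades that activate the Toll ligand Spätzle, both in dorsoventral patterning of the embryo and in immunity, and on the cascade that leads to melanization. Expression of the family was examined in embryos mutant for the gene of the neural transcriptional repressor Insensitive (insv).

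The 28 genes described here were chosen by their symbol, which had to be Spn followed by a digit or nec (necrotic), from 11982 genes with a uniquely named probe set. They are all 28 genes that carry such a symbol in the RefSeq annotation. Only Spn42Da had more than 1 probe set (2, so 29 in all), and the one with the higher mean over the 6 arrays was selected on that mean. The difference between genotypes did not enter the choice, but the family was put forward with results of these arrays known, so counts over its members are a description. Acp76A, a seminal serpin also known as Spn76A, falls outside the naming rule and read 2.2, the lowest value on any array, on all 6 arrays. The spinophilin gene Spn, which is no serpin, was left out by the required digit.

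RNA came from whole embryos aged 6 to 8 h. The mutant group carried the allele insv[23B] (3 arrays) and the wild-type group was the strain w[1118] (3 arrays). Flies and embryos of both groups were kept at 25 °C, and no treatment was given in either. The labels do not say whether mutant embryos also came from mutant mothers, whether the mutant stock shares the w[1118] background, or whether arrays of a group hold separate collections. The p-values therefore measure the spread between these arrays, which may be technical. Values are log2 levels from Affymetrix Drosophila Genome 2.0 arrays, so a difference of 1 is a factor of 2, and levels of different probe sets are not comparable with each other.

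The insv probe set read 10.9 on each wild-type array and 4, 3.6 and 4.2 on the mutant arrays, a difference of -6.97 (125-fold lower, limma adjusted p = 3.26e-06). Whether its probes lie in sequence that insv[23B] lacks is not stated in the labels. Within a genotype the arrays correlated at 0.996 to 0.998 across the 8334 tested probe sets, and between genotypes at 0.905 to 0.906. Spike-in transcripts of Bacillus, which hold no fly RNA, read lower on every mutant array than on every wild-type array, by a median of -1.43 over 23 probe sets. Hybridization controls, added as labelled RNA, were also lower in the mutant (median -0.55 over 18 probe sets, 16 of them without overlap). The differences on a scale set by the spike-ins are given below, and a technical shift of the 3 mutant arrays together cannot be told apart from an effect of genotype. In whole embryos, fewer cells of a type and less RNA per cell cannot be told apart either.

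Expression of the family was uneven. On all 6 arrays 16 of the 28 genes read below 3, and 10 of these lay at 2.2 throughout, namely Spn28B, Spn28Da, Spn28Db, Spn28F, Spn38F, Spn42Db, Spn53F, Spn75F, Spn77Bb and Spn88Eb. Of all 18769 fly probe sets, 43.0% lay at that floor on all arrays, against 35.7% of the serpin genes. These shares are not like for like, since 4720 of those probe sets have no symbol and a gene can have several probe sets. The floor is where GCRMA, the authors' background correction and summary method, places a probe set with no signal above background. A value there is a bound and does not show that the transcript is absent. Spn31A read 2.5 on each of the 6 arrays.

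In the remaining genes the insv mutant had the higher level wherever a difference was called. A probe set was tested if it reached 4 on at least 3 of the 6 arrays, and 9 serpin genes did. Of these 9, 7 were higher in the mutant, 0 were lower and 2 were not called at a limma adjusted p under 0.05, while 24.7% of all 8334 tested probe sets were called higher and 40.8% lower. The median difference of the 9 genes was 0.60, and that of all tested probe sets was -0.10. Over all 28 members, floor genes included, the median was 0.02. The filter bears on these counts: Spn43Ab reached 4 only on the mutant arrays and Spn47C on the 3 mutant arrays and 1 wild-type array, so each could pass only by being higher in the mutant. The members at the edge were Spn42De, with a mean of 4.47 just inside the filter, and nec, with a mean of 3.03 just outside it.

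**Figure D1:**
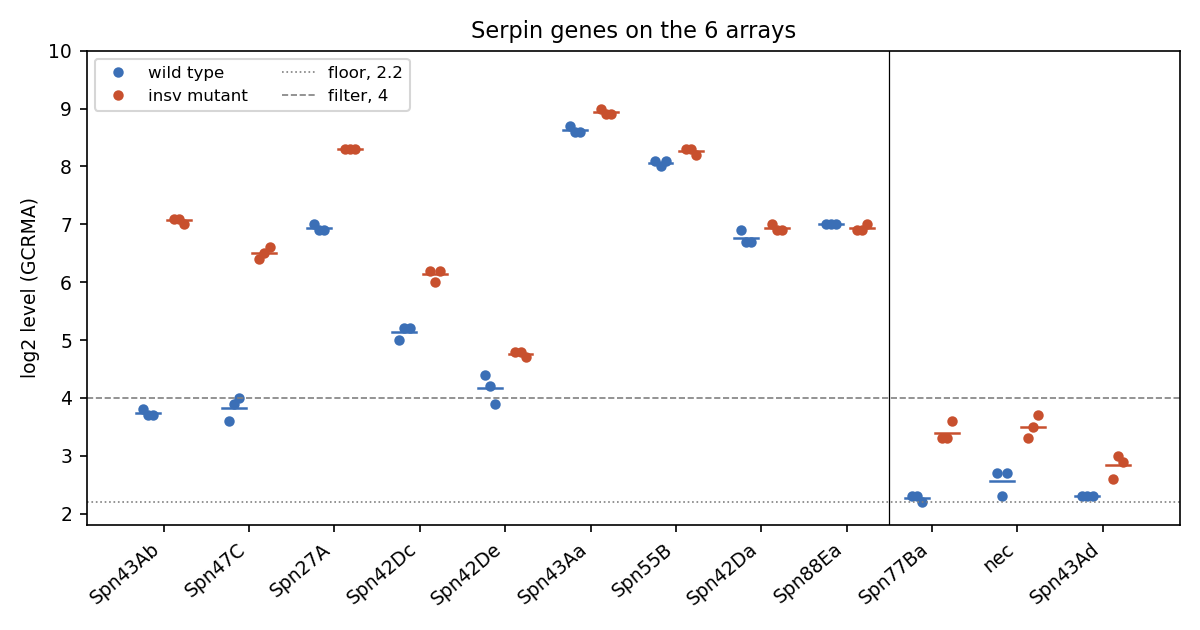
Log2 level (GCRMA) of the 9 tested serpin genes and, right of the vertical line, 3 genes under the filter, with 1 point per array (blue, wild type, n = 3; red, insv mutant, n = 3) and a bar at each group's mean. The dotted line marks the floor of 2.2 and the dashed line the filter at 4; the groups stand apart in all but Spn42Da and Spn88Ea.

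The largest difference in the family was that of Spn43Ab, a neighbour of necrotic in the genome. It read 7.1, 7.1 and 7 on the mutant arrays and 3.8, 3.7 and 3.7 on the wild-type arrays. The wild-type values lay above the floor but under the filter, and every mutant value lay far above every wild-type value. The difference was 3.33 ± 0.05 (log2, SE, n = 3 each; limma adjusted p = 9.44e-07), or 10.1-fold, and ranked 232 from the top among the 8334 tested probe sets. After quantile normalization it was 2.91.

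Spn47C came next. It read 6.4, 6.5 and 6.6 in the mutant and 3.6, 3.9 and 4 in wild type. The groups did not overlap, and the difference of 2.67 ± 0.12 (SE; limma adjusted p = 3.12e-05), or 6.35-fold, was more than 10 times the SD of either group (0.10 in the mutant, 0.21 in wild type). The wild-type values of Spn43Ab and Spn47C were low, at or below 4 but above the floor, so the size of their fold changes is uncertain. Quantile normalization reduced the difference of Spn47C to 2.17.

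Spn27A was higher in the mutant as well. It encodes the inhibitor that restrains the protease Easter, which cuts Spätzle in dorsoventral patterning, and in larvae and adults it restrains the activation of prophenoloxidase. It read 8.3 on all 3 mutant arrays and 7, 6.9 and 6.9 in wild type, so it was well above the floor in both genotypes. The difference was 1.37 ± 0.04 (SE; limma adjusted p = 5.48e-06), a 2.58-fold rise with a 95% confidence interval of 1.27 to 1.46 on the log2 scale. Quantile normalization (1.36) and leaving out any 1 array (1.35 to 1.40) changed it little.

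The 5 genes of the Spn42D group stand side by side in the genome and did not behave as a unit. Spn42Dc read 6.2, 6 and 6.2 in the mutant and 5, 5.2 and 5.2 in wild type, without overlap, a difference of 1.0 ± 0.09 (SE; limma adjusted p = 0.000356). Quantile normalization reduced it to 0.55, still called. Spn42De read 4.8, 4.8 and 4.7 in the mutant and 4.4, 4.2 and 3.9 in wild type. Its groups did not overlap (0.60 ± 0.13 SE, limma adjusted p = 0.0115), but after quantile normalization the sign turned (-0.14, adjusted p = 0.249), so the direction of this gene depends on the scale.

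Spn42Da, a serpin that inhibits furin-like proteases and is made in several forms with different reactive loops, was measured by 2 probe sets that gave different sizes. The probe set with the higher mean read 7, 6.9 and 6.9 in the mutant and 6.9, 6.7 and 6.7 in wild type, so the groups met at 6.9. Its difference of 0.17 missed the threshold (adjusted p = 0.0831), with a 95% confidence interval of -0.01 to 0.34. The other probe set read 7, 7 and 6.9 against 6.3, 6.5 and 6.2, and was called higher (0.63 ± 0.09 SE, adjusted p = 0.00198). Which transcripts each probe set reads was not analysed here. With the mean of both, the gene was called (0.40, adjusted p = 0.0019).

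Between these, Spn42Db lay at the floor and Spn42Dd, a serpin of the Toll response to fungi, read 2.8 or 2.9 on every array. Genes on either side of the Spn42D group differed by small amounts, some of them called: coro, an actin-binding protein gene, was higher by 0.27 (limma adjusted p = 0.00203), about as much as some called serpins, and CG3358 was lower (-0.17, adjusted p = 0.0248). There mim (0.00) was not called, CG30158 (-0.03) was under the filter and CG9447 lay at the floor. The serpins of the Spn43A group, Spn43Aa, Spn43Ab, Spn43Ad and nec, lie within 7 annotated genes. Each had every mutant value above every wild-type value, with differences from 0.30 to 3.33, though Spn43Ad and nec lay under the filter.

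Spn43Aa was high in both genotypes and slightly higher in the mutant. It read 9, 8.9 and 8.9 there and 8.7, 8.6 and 8.6 in wild type (0.30 ± 0.05 SE, limma adjusted p = 0.0032). Although small, the difference was larger than the spread of the arrays, since the groups did not overlap.

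The other members of the Spn43A group, Spn43Ad and nec, stayed under the filter. Necrotic restrains Toll activation in the immune response by blocking the pathway of the protease Persephone. Its probe set read 3.3, 3.5 and 3.7 in the mutant and 2.7, 2.3 and 2.7 in wild type. All mutant values were above all wild-type values, with a difference of 0.93 that fell to 0.56 after quantile normalization. Spn43Ad read 2.6, 3 and 2.9 against 2.3 on each wild-type array, a difference of 0.53.

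Of the annotated genes near the Spn43A group, Cyp9b2, a cytochrome P450 gene, was also far higher in the mutant (3.07 ± 0.15 in wild type and 6.77 ± 0.06 in the mutant, SD, n = 3 each; 3.70 ± 0.09 SE, limma adjusted p = 3.59e-06). Cyp9b2 reached 4 on mutant arrays alone, so it could pass the filter only by being higher there. Cyp9b1 beside it averaged 2.2 and 2.37, under the filter. CG12828, CG11060 and CG33140 lay at the floor on all arrays. CG30385, on the far side of nec, differed by -0.27 under the filter.

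**Figure D2:**
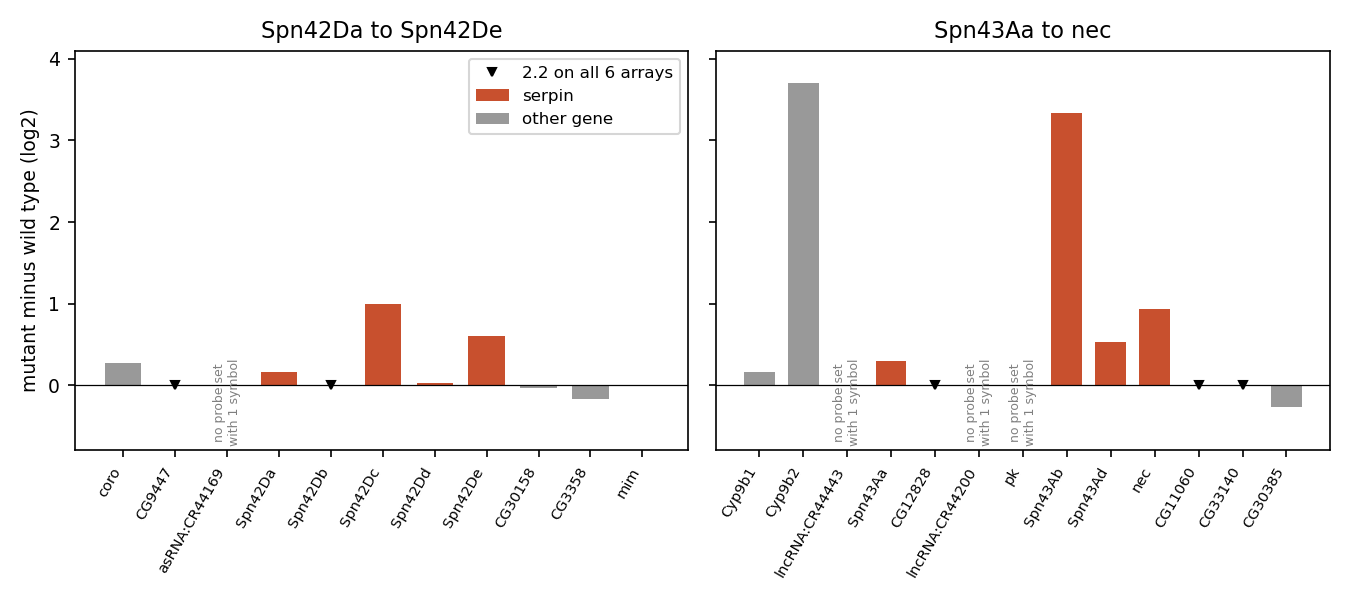
Difference between mutant and wild type (log2) in gene order along the Spn42D group (left) and the Spn43A group (right), with the 3 nearest annotated genes on each side. Red bars are serpins, grey bars other genes, triangles mark genes at 2.2 on all 6 arrays, and genes with no uniquely named probe set are marked in words; Spn43Ab (3.33) and Cyp9b2 (3.70) have the highest bars shown.

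Spn55B and Spn88Ea, with clear levels in both genotypes, differed little. Spn55B read 8.3, 8.3 and 8.2 in the mutant and 8.1, 8 and 8.1 in wild type. Its difference of 0.20 ± 0.05 (SE, limma adjusted p = 0.0135) was called on the deposited values and not after noise within the rounding of the values was added (0.15, adjusted p = 0.0751). Spn88Ea, a negative regulator of Toll signalling that is also needed for wing expansion in the adult, read 6.9, 6.9 and 7 against 7 on each wild-type array. Its difference of -0.07 (95% confidence interval -0.16 to 0.03, adjusted p = 0.159) was not called. It became -0.19 and a call after quantile normalization (adjusted p = 0.0189), and its sign turned after median centring (0.03).

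Spn88Eb, the gene beside Spn88Ea, lay at the floor. The nearest measured genes on either side of this pair, CG42542 (-0.13, limma adjusted p = 0.0231) and Mau2 (-0.57, adjusted p = 0.000313), were lower in the mutant. In the Spn77B group, Spn77Ba, which restrains melanization in the tracheae, read 3.3, 3.3 and 3.6 in the mutant and 2.3, 2.3 and 2.2 in wild type. These values do not overlap and differ by 1.13, but both groups lie under the filter. Its neighbour Spn77Bb lay at the floor, and Spn77Bc did so on all arrays except 1 wild-type array (2.5). On either side of this group alphaSnap was not called (0.03, limma adjusted p = 0.446) and Rbbp5 was lower (-0.50, adjusted p = 0.00287). Beside Spn28Da and Spn28Db, SmE was lower (-0.40, adjusted p = 0.00464) and Snoo read 2.4 in both genotypes.

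Counted over all 28 genes, 10 had every mutant value above every wild-type value and 0 the reverse. Among all 18769 fly probe sets, with or without a symbol, these shares were 13.6% and 18.9%. The 10 were the 7 called genes with nec, Spn43Ad and Spn77Ba. When every fly probe set was tested without the filter, these 3 were called as well (limma adjusted p = 0.0216, 0.0367 and 0.00268), which made 10 of 28, while 11.3% of all fly probe sets were called higher. At least 2-fold rises were called for 4 of the 9 tested genes (Spn43Ab, Spn47C, Spn27A and Spn42Dc) and for 12.7% of tested probe sets.

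**Figure D3:**
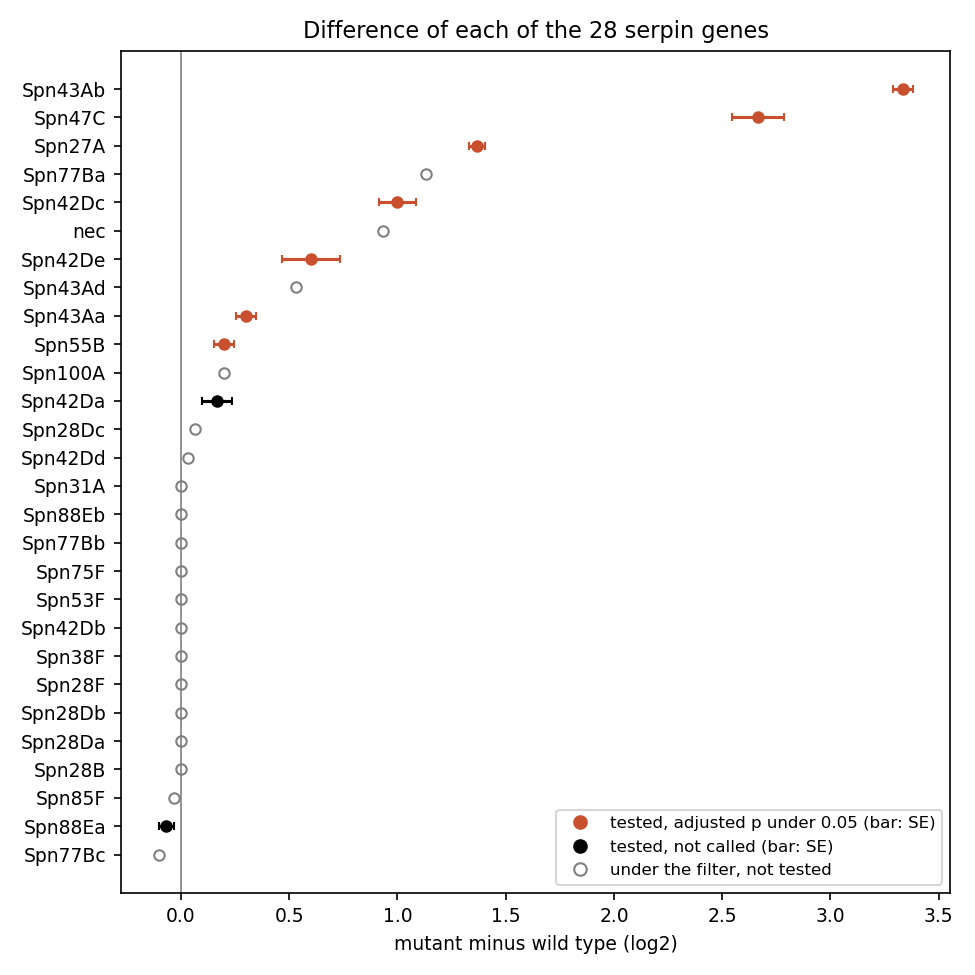
Difference between mutant and wild type (log2) for each of the 28 serpin genes, ordered by size. Filled points were tested (red, called; black, not called; bars, SE of the limma fit, n = 3 arrays per genotype) and open points lay under the filter; Spn43Ab (3.33), Spn47C (2.67) and Spn27A (1.37) stand highest and the lowest is Spn77Bc (-0.10).

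**Figure D4:**
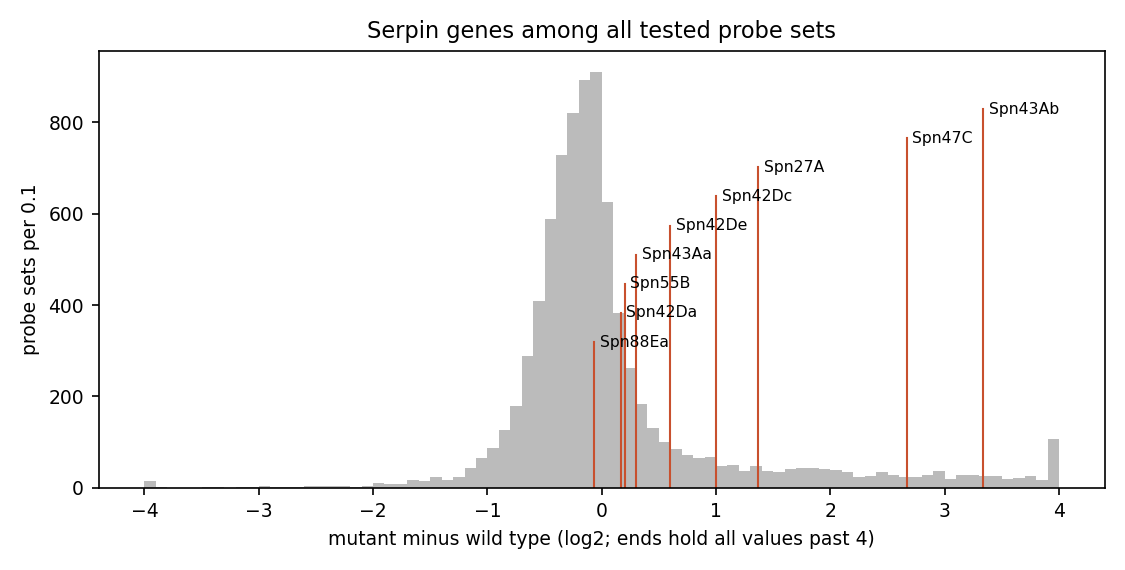
Number of tested probe sets per 0.1 of the difference between mutant and wild type (log2, grey), with the 9 tested serpin genes as red lines whose heights only separate the names; the end bars hold all values past 4. The grey distribution peaks just below 0, and 8 of the 9 lines stand right of 0.

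Other genes with low readings hardly differed. Spn100A read 2.7, 2.9 and 2.6 in the mutant and 2.6, 2.5 and 2.5 in wild type, overlapping at 2.6. Spn28Dc, which limits melanization after injury, read 2.6 or 2.7 on all arrays, and Spn85F 2.3 or 2.4.

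The scale of the arrays moved all of these differences. On a scale that equalises the mean of the Bacillus spike-ins every difference grew by 1.39, and all 9 tested serpin genes were then called higher, from Spn88Ea at 1.32 to Spn43Ab at 4.72. That scale raises nearly everything, with 92.6% of tested probe sets called higher. Of all calls 37.6% were higher on the deposited scale, 51.5% after median centring and 99.3% on the spike-in scale. The median of all tested probe sets was 1.29 on that scale, so Spn88Ea lay close to it and Spn43Ab, Spn47C and Spn27A above it on each scale.

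**Figure D5:**
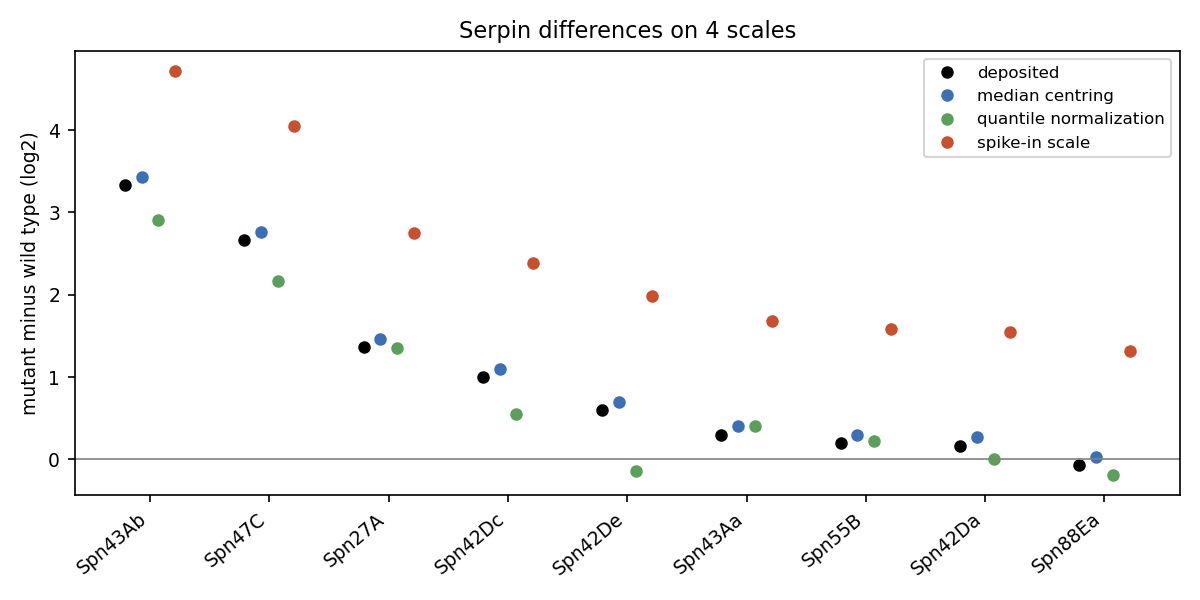
Difference between mutant and wild type (log2) of the 9 tested serpin genes on the deposited scale (black), after median centring (blue), after quantile normalization (green) and on the Bacillus spike-in scale (red). Spn43Ab, Spn47C and Spn27A were above 1 on all 4 scales, while Spn42De fell below 0 after quantile normalization.

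Several tested genes of the lists that follow (dl, Ddc, amon, Tep3, CG16713, CG3505, CG18754, Cpr56F, ChAT and Snap25) reached 4 on mutant arrays alone, so they could pass the filter only by being higher there, and the counts that hold them are a description. Genes that act upstream of Spätzle, which include proteases that serpins restrain, mostly lay under the filter. Of 14 measured genes that act upstream of Spätzle, 6 lay at 2.2 on all arrays, among them psh (Persephone), and only 3 were tested. Easter (ea), the protease restrained by Spn27A, read 4.5, 4.2 and 4.2 in the mutant and 5.2, 5.1 and 4.7 in wild type. It was thus lower in the mutant (-0.70 ± 0.16 SE, limma adjusted p = 0.0135). Of the 3 tested genes 1 was lower and 0 higher, beside 40.8% and 24.7% of all tested probe sets. A link to the difference of Spn27A was not tested. The other tested genes, pip and wbl (windbeutel), which act in the eggshell step of dorsoventral patterning, were not called. SPE, the Spätzle-processing enzyme, read 3.2 to 3.5 in the mutant and 2.5 to 2.7 in wild type, under the filter.

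Of 9 tested genes of the Toll ligand, receptor and cytoplasmic cascade, 2 were higher, 2 lower and 5 not called (median -0.03), beside 24.7% higher and 40.8% lower among all tested probe sets. The ligand gene spz was higher (1.07 ± 0.04 SE) and so was the transcription factor gene dorsal (dl, 1.57 ± 0.09). The kinase gene pelle (pll, -0.77 ± 0.10) and the inhibitor gene cactus (cact, -0.27 ± 0.04) were lower (limma adjusted p between 1.26e-05 and 0.00203 for the 4). The receptor gene Tl did not pass (-0.10, adjusted p = 0.251). Of 22 listed antimicrobial and related target genes only 10 had a uniquely named probe set, so the others were not measured. Of these 10, 7 lay at the floor, Drs (drosomycin) among them. BomS2 (0.50) and Drsl2 (0.10) lay under the filter, and their groups overlapped. The only tested one, Drsl5, was lower (-1.0 ± 0.07 SE, limma adjusted p = 0.00016).

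Of 3 tested melanization genes 2 were higher and 0 lower, beside 24.7% and 40.8% of all tested probe sets. Ddc, which encodes dopa decarboxylase, averaged 5.7 ± 0.26 (SD, n = 3) in the mutant against 3.07 ± 0.29 (SD, n = 3) (difference 2.63 ± 0.20 SE, limma adjusted p = 0.000231). The phenoloxidase gene PPO2 differed by 0.60 (adjusted p = 0.000482), and PPO1 was not called (0.13, adjusted p = 0.143). Among furin-like proteases, the class that Spn42Da inhibits, amon rose by 1.97 and Fur2 fell by 0.47 on the log2 scale (limma adjusted p = 9.68e-06 and 0.0148).

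Most tested genes of other inhibitor families and related proteins were also higher in the mutant. Of 8 tested genes 7 were higher, 0 lower and 1, Reck, not called (0.00), with a median of 0.85, while 24.7% of all tested probe sets were called higher and 40.8% lower, with a median of -0.10. They included IM33 (3.77 ± 0.12 SE) and CG16713 (3.13 ± 0.25), which encode small Kunitz-type proteins, fat-spondin (1.07 ± 0.06) and the thioester protein gene Tep3, which lay at the floor on each wild-type array and read 5.2, 4.5 and 4.7 in the mutant. Limma adjusted p was between 1.06e-05 and 0.000255 for these 4. Of 6 tested serine proteases of the CLIP-domain type and related ones, 3 were higher, 2 lower and 1 not called, beside the same 24.7% and 40.8% over all tested probe sets. CG18754 led with 6.13 ± 0.06 (SE), followed by CG3505 (1.47 ± 0.19) and teq (0.80 ± 0.09), and mas was lower (-0.37 ± 0.06) besides ea (limma adjusted p between 4.56e-07 and 0.0135).

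Markers of later development and of several cell types moved with genotype on the same arrays. All 16 tested genes of a late embryonic list of muscle, cuticle and tracheal genes were higher in the mutant (median 3.08), against 24.7% of all tested probe sets. The 4 with the smallest adjusted p were the myosin light chain gene Mlc1 (difference 3.47) and the cuticle genes Cpr56F (3.67), TwdlN (4.87) and TwdlM (3.90). Their summed level, as log2 of the sum of unlogged values over 17 measured genes, was 14.3 on each mutant array and 11.1 to 11.2 in wild type. Over all tested probe sets 24.7% were called higher and 40.8% lower, and these shares stand beside each count that follows. For 17 hemocyte markers the summed level was 13.6 to 13.7 in the mutant and 12.9 to 13 in wild type, with 6 of 11 tested genes higher and 2 lower. The largest differences there were those of Glt (4.30), the collagen genes vkg (3.8) and Col4a1 (3.57), and SPARC (2.53), which encode extracellular matrix proteins. The genes gcm (-0.23, limma adjusted p = 0.0032) and crq (-0.37, adjusted p = 0.00452) were lower, and srp (0.10), Pvr (-0.07) and PPO1 were not called. From the hemocyte list NimC1, eater and NimB5 lay at the floor, and so did the larval fat body genes Lsp2 and Fbp1. Hml, also on the hemocyte list, read 2.3 to 2.7 in the mutant and 2.2 or 2.3 in wild type. From the same list gcm2 (-0.20) and lz (-0.13) read lower in the mutant, likewise under the filter. For 7 fat body genes the summed level was 13.9 to 14 in the mutant and 13.6 to 13.7 in wild type (2 of 4 tested higher, Desat1 by 1.10 and apolpp by 0.37, 1 lower, bmm by -0.23, and srp not called). For 11 neuronal genes it was 12.6 to 12.7 against 12.2 to 12.3 (6 of 7 tested higher), with differences of 3.37 for nrv3, 3.63 for Rab3, 3.87 for Gad1 and 3.47 for cpx. Such a sum leans on the probe sets that read highest, elav among the neuronal genes, apolpp among the fat body genes and srp among the hemocyte markers. The pan-neuronal marker elav, the tested gene that was not called, averaged 12.1 in the mutant and 12.2 in wild type (-0.07, limma adjusted p = 0.385), and VGlut lay at the floor. The neuronal genes brp (-0.03), futsch (0.03) and nSyb (0.37) lay under the filter, and their groups overlapped. The part of developmental age and of these cell types in the serpin differences was not tested. Of 10 genes listed for the male accessory gland, a tissue absent from embryos, 8 lay at the floor. The tested one, Acp95EF, read well above the floor in these embryos. Its values were 6, 5.9 and 6 in the mutant and 6.8, 6.8 and 6.3 in wild type, and it was called lower (-0.67, limma adjusted p = 0.0126).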

How the data were processed

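The authors deposited log2 expression levels of 18952 probe sets on 6 arrays, made with GCRMA per the submitters' processing notes, which name no version. The values span 2.2 to 15.1 and carry 1 decimal, a range of log2 levels. No test included the 183 controls. Of the other 18769 probe sets 13647 had 1 symbol in the platform annotation, 402 several and 4720 none. Symbols were updated by gene identifier through RefSeq (Release 6 plus ISO1 MT), used only for names and gene order. Protein and promoter sequences were not used here.

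Of several probe sets of a gene, the one of highest mean stood for it. The 8334 probe sets that reached 4 on 3 arrays or more were tested with limma 3.58.1 in R 4.3.3 (lmFit, eBayes, no block), and a call needed an adjusted p (Benjamini-Hochberg, over all of them) below 0.05. In 24.1% of tested probe sets rounding left no spread at all within a genotype, so small differences can be called. The fit was tested on simulated data with independent noise, which does not show its error rate on these arrays. The number of arrays limits the precision.

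All members were named. From each other list the text names up to 4 called members with the smallest adjusted p (the 2 of highest mean where none passed), and beside groups of adjacent serpins the nearest annotated genes with a named probe set. Other names (psh, SPE, pip, wbl, Tl, Drs, BomS2, Drsl2, PPO1, Reck, elav, gcm, gcm2, lz, crq, srp, Pvr, Hml, brp, futsch, nSyb, ChAT, Snap25 and the floor markers) were added after their values were seen. The members and lists were chosen with earlier results of these data known. Alternatives were other filters, scales, priors, array weights, a replicate block, each array left out, the mean of probe sets, symbols not updated and, added after seeing the data, noise within the rounding.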

Additional observations from a re-analysis of the deposited data

How the results depend on the processing

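Over the alternatives run, 6 to 10 serpin genes were called higher and 0 or 1 lower. Spn27A, Spn42Dc, Spn43Aa, Spn43Ab and Spn47C were called higher under each of their 17 alternatives. Spn42De was called under 15 of 16 and turned to -0.14 after quantile normalization. Spn88Ea turned to 0.0333 after median centring and to 1.32 on the spike-in scale, and it was the 1 gene called lower after quantile normalization and without insv mutant replicate 3 (-0.10, adjusted p = 0.0214). Spn42Da was called after median centring, on the spike-in scale, with the replicate block, with the mean of probe sets and without wild type replicate 1 (0.23, adjusted p = 0.0144).

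The median difference of the tested members moved from 0.60 to 0.0167 with no filter (28 genes), 0.40 after quantile normalization, 1.99 on the spike-in scale and 0.42 with array weights. Leaving out each array in turn gave medians of 0.47 to 0.72, with 7 to 8 genes higher and 0 to 1 lower. With the replicate number as a block (replicate block) 7 were higher, Spn42Da gained a call and Spn55B lost it (adjusted p = 0.0506). Deviations of same-numbered arrays correlated at 0.17, -0.01 and 0.27, and those of differently numbered arrays at -0.29 to 0.20. These values do not settle whether the numbers mark pairs, and the main fit used no block. The cause of these changes was not tested. For genes at 2.2 in either genotype the floor limits what a difference can show.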
